A study of Mus musculus with 6 samples.

Results

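The genes described here encode the nidogens and the heparan sulfate proteoglycans of the vessel wall. All 10 were chosen by name, with earlier results of these libraries known and no cut on measured values: the secreted proteoglycans Hspg2 and Agrn, the nidogens Nid1 and Nid2, the syndecans Sdc1, Sdc2, Sdc3 and Sdc4, and the glypicans Gpc1 and Gpc3. All 10 were found among the 35275 genes of the deposited table, and all 10 passed the filter for testing, a mean of at least 1 FPKM (fragments per kilobase of a gene, relative to the reads in genes of that library) over the libraries, as did 12165 genes in all. Whole mouse aorta was profiled by RNA sequencing in 6 libraries, 3 of the genotype Wild-type and 3 of the genotype EC-Jag1KO, labelled as deficient in the Notch ligand Jagged1 in endothelial cells. Per the series title, the loss concerns mature endothelial cells and the question includes the phenotype of the smooth muscle. The labels give neither the driver of the deletion nor age, sex, strain or whether each library came from its own animal, so p-values measure only the spread between these samples.

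Heparan sulfate proteoglycans are core proteins that carry long sulfated sugar chains, which bind growth factors, lipoproteins and matrix proteins. Perlecan and agrin are secreted into basement membranes, where nidogens connect the laminin network to type IV collagen and also bind perlecan. Syndecans span the cell membrane and glypicans are held on it by a lipid anchor, and members of both families act as co-receptors. In the aorta, basement membranes underlie the endothelium and surround each smooth muscle cell, and perlecan is known as an abundant proteoglycan of the arterial wall.

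Each library held 19889910 to 25914325 reads in genes. Jag1 stood at 9.86, 10.6 and 16.9 FPKM in the wild-type and at 13.5, 9.42 and 19.6 FPKM in the EC-Jag1KO libraries; cells other than endothelium also express it and the value spans the whole gene, so it is no check of the deletion. Endothelial, smooth muscle and adventitial markers were all detected, with summed levels over 12 endothelial markers of 365 to 542 FPKM in the wild-type and 408 to 513 FPKM in the EC-Jag1KO libraries. The summed level of 9 smooth muscle markers was 14079 to 14784 FPKM in the wild-type and 11833 to 13998 FPKM in the EC-Jag1KO libraries, and that of 8 mesothelial markers 0.576 to 0.875 against 1.85 to 4.01 FPKM, so in both lists the sums did not overlap between the groups. The smooth muscle sum is mostly Acta2 and Tagln, and its members did not all go the same way: Myh11, Tagln, Smtn and Lmod1 were lower in each EC-Jag1KO library, Myocd was higher in each (37.9, 32.4 and 53.4 against 31.7, 27.8 and 27.7 FPKM), and the groups overlapped for the other 4, Acta2 among them. Of the 8 mesothelial markers 0 reached a mean of 1 FPKM and 1 was at 0 in all libraries. Adipocyte markers ranged from 432 to 2696 FPKM among wild-type and from 1014 to 2373 FPKM among EC-Jag1KO libraries. EC-Jag1KO replicate 3 received the lowest quality weight of the 6 libraries (0.355, against 3.17 for EC-Jag1KO replicate 1), and wild-type replicate 3 and EC-Jag1KO replicate 3 were the libraries that expressed Xist, at 26.9 and 40.7 FPKM against at most 0.0738 FPKM in the other 4.

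Hspg2, Sdc4, Gpc3 and Sdc2 were the most abundant of the 10 genes and Nid2 the least. Over the 6 libraries the mean levels were 136 FPKM for Hspg2, 86.6 for Sdc4, 54.4 for Gpc3, 45.9 for Sdc2, 26.6 for Agrn, 26.0 for Nid1, 15.0 for Sdc1, 11.4 for Gpc1, 8.81 for Sdc3 and 1.69 for Nid2. Since FPKM is per length, these levels can be set side by side. Among the tested genes, Hspg2 lay at the 96.9th percentile of mean level and Nid2 at the 7.83rd percentile. The order was not resolved throughout: the ranges over libraries overlapped between Hspg2 and Sdc4, Sdc4 and Gpc3, Gpc3 and Sdc2, and Agrn and Nid1, and Agrn exceeded Nid1 in 4 of 6 libraries. From Sdc2 down to Agrn, from Nid1 to Sdc1, and at each later step the ranges did not overlap and all 6 libraries kept the order.

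**Figure D1:**
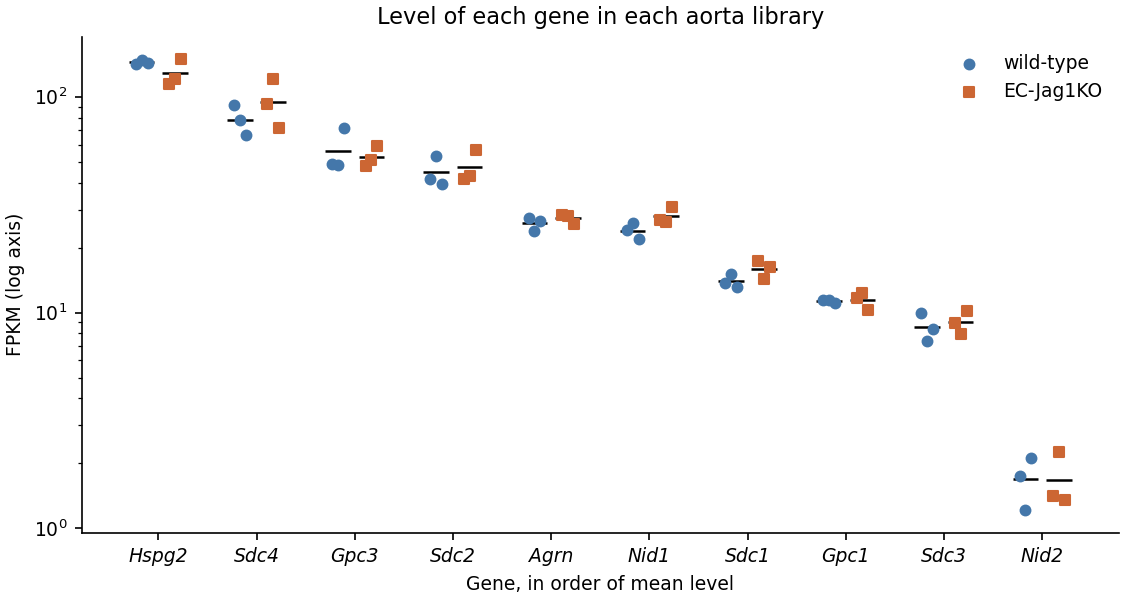
FPKM (log axis) of each gene in the 3 wild-type (circles) and 3 EC-Jag1KO (squares) libraries, with the group mean as a bar, in order of mean level over the 6 libraries. Levels run from 136 FPKM for Hspg2 to 1.69 FPKM for Nid2, and the groups overlap in every gene but Nid1.

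None of the 10 genes passed the test between the genotypes. In limma's moderated test over all 12165 genes, 0 of the 10 passed an adjusted p of 0.05, as did 0% of all genes, and 0 of the 10 passed an unadjusted p of 0.05, against 7.71% of all genes. Voom on recovered reads, with or without quality weights, also gave 0 members past the adjusted threshold. Array weights, of which EC-Jag1KO replicate 1 received 14.7 and replicate 3 of that genotype 0.259, gave 2, Hspg2 at a log2 fold change of -0.31 (adjusted p = 0.0329) and Sdc1 at 0.27 (adjusted p = 0.0381); in that fit 1647 of all genes were called. The median log2 fold change of the 10 was 0.071, with 7 values above 0 and 3 below, beside a median of -0.00022 over all tested genes. The median size of the change, regardless of sign, was 0.074 for the 10 and 0.11 for all tested genes. The groups did not overlap in 1 of the 10, Nid1, which was higher in EC-Jag1KO; over all tested genes this held for 13.6%, and for 6.84% in the higher direction, so the share among the 10 lies near the background. That count was 0 under quantile normalization and 5 without EC-Jag1KO replicate 3 (Hspg2 lower, and Agrn, Nid1, Sdc4 and Gpc1 higher), where 27.8% of all tested genes did not overlap.

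**Figure D2:**
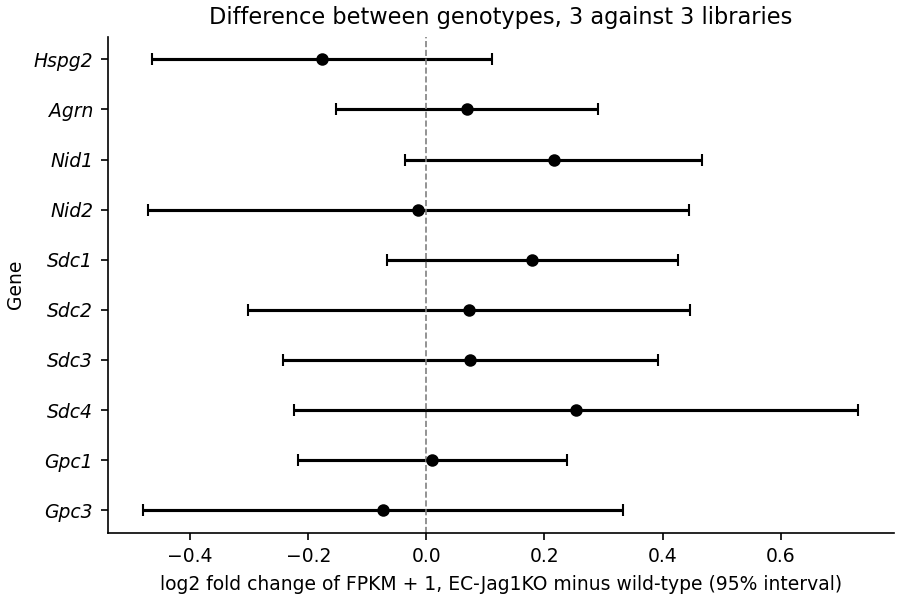
Log2 fold change of FPKM + 1 (EC-Jag1KO minus wild-type) of each gene with its 95% interval from limma, 3 against 3 libraries. All 10 intervals include 0; the estimates run from -0.18 for Hspg2 to 0.25 for Sdc4.

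Among the secreted proteoglycans, Hspg2 was lower in the EC-Jag1KO libraries 1 and 2 than in any other library. Hspg2 encodes perlecan, the large modular proteoglycan of basement membranes (ENSMUSG00000028763, plus strand of chromosome 4, 137468769 to 137570630 in mm10). It measured 141, 148 and 143 FPKM in the wild-type and 115, 120.5 and 149 FPKM in the EC-Jag1KO libraries, on 33994 to 54761 reads. Wild-type values lay close together, and EC-Jag1KO replicate 3 was the highest of all 6, so the groups overlapped. The means were 144 ± 3.75 and 128 ± 18.2 FPKM (SD, n = 3 each), and the log2 fold change was -0.18 (95% interval from -0.46 to 0.11, limma adjusted p = 0.787). Without EC-Jag1KO replicate 3 it was -0.29 (limma adjusted p = 0.468), and leaving out replicate 1 of that genotype gave -0.10. The smooth muscle marker sum, though not each marker, was also lower in the EC-Jag1KO libraries (by group mean 6 of 9 markers lower and 3 higher), and its part in this difference was not tested; EC-Jag1KO replicate 3 had the lowest smooth muscle sum and the highest Hspg2. Since these are whole-tissue values, fewer cells of a type and less RNA per cell cannot be told apart.

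Agrn encodes agrin, known for gathering acetylcholine receptors at the nerve-muscle synapse and present in vascular basement membranes (minus strand of chromosome 4, 156165290 to 156197488). It measured 27.4, 24.0 and 26.5 FPKM in the wild-type and 28.2, 28.0 and 25.6 FPKM in the EC-Jag1KO libraries. These values were among the steadiest of the 10 genes, with a coefficient of variation of 6.02% over the 6 libraries, beside a median of 14.1% over all tested genes. The means of 26.0 ± 1.78 and 27.3 ± 1.41 FPKM gave a log2 fold change of 0.069 with an interval from -0.15 to 0.29 (adjusted p = 0.908). With 1 library left out it ran from 0.015 (wild-type replicate 2) to 0.11 (EC-Jag1KO replicate 3). The ratio of Hspg2 to Agrn was 5.15, 6.18 and 5.39 in wild-type and 4.08, 4.30 and 5.81 in EC-Jag1KO libraries, so it was lowest in the same 2 EC-Jag1KO libraries and overlapped between the groups.

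Nid1 was the only one of the 10 genes with all EC-Jag1KO libraries above all wild-type libraries. It encodes nidogen-1, also called entactin, the linker between laminin and type IV collagen (ENSMUSG00000005397, plus strand of chromosome 13, 13437602 to 13512275). It measured 24.1, 25.9 and 21.9 FPKM in the wild-type and 26.9, 26.3 and 30.8 FPKM in the EC-Jag1KO libraries, on 3165 to 4828 reads. The gap between the groups was narrow, from 25.9 FPKM in wild-type replicate 2 to 26.3 FPKM in EC-Jag1KO replicate 2, and EC-Jag1KO replicate 3 lay furthest up. The means were 24.0 ± 2.04 and 28.0 ± 2.44 FPKM (SD, n = 3 each), and the log2 fold change was 0.22 (95% interval from -0.04 to 0.47, limma adjusted p = 0.682). It was 0.086 without both libraries that expressed Xist, an alternative added once the values had been seen. The summed mesothelial markers, at no more than 4.01 FPKM, were also higher in each EC-Jag1KO library. Summed adventitial fibroblast markers overlapped, at 1167 to 1429 FPKM in the wild-type and 1125 to 1407 FPKM in the EC-Jag1KO libraries. Of these 8 markers 2 were higher in each EC-Jag1KO library, and the groups overlapped for 6. The part of these cell types in the difference of Nid1 was not tested.

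Nid2, the gene of nidogen-2, whose binding partners overlap with those of nidogen-1, was present at a low level (plus strand of chromosome 14, 19751257 to 19811787). It measured 1.75, 1.21 and 2.13 FPKM in the wild-type and 1.41, 2.25 and 1.36 FPKM in the EC-Jag1KO libraries, on 149 to 267 reads, so counting adds more to its spread than to that of the other 9 genes. The groups overlapped fully, with means of 1.70 ± 0.459 and 1.68 ± 0.502 FPKM and a log2 fold change of -0.013 (interval from -0.47 to 0.44, adjusted p = 0.994). The sign of this estimate turned with single libraries, to 0.10 without wild-type replicate 3 and to 0.069 without EC-Jag1KO replicate 3. Its span in the table overlaps that of 2700060E02Rik on the other strand (45.4 FPKM on average) by 386 bases. In GENCODE M21 the exons of these genes share 0 bases, but the coordinates of Nid2 there differ from those deposited. Its exons there cover 5174 bases against a deposited length of 4884, so whether the counted gene models share exon bases cannot be told. Nid1 made up 91.1% to 95.8% of the summed nidogen FPKM in every library, with 93.3 ± 2.20% in wild-type and 94.3 ± 1.93% in EC-Jag1KO.

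The promoters of Hspg2 and Nid1 are shown because, of the 7 members with a window in the RefSeq promoter table (GRCm38.p6, 250 bases before to 50 bases after a start), they were the only ones that held TGGGAA, the core of the motif bound by RBPJ, the DNA-binding partner of Notch. Each held it 1 time, in the sense orientation, in capitals below. The match began 33 bases before the RefSeq start in Hspg2 and 158 bases before that of Nid1. The deposited Hspg2 gene begins at 137468769, upstream of that RefSeq start, so its match lies inside the deposited gene. Searched on both strands, TGGGAA was present in 25.6% of the 32851 windows of the table, and in 2 of the 8 windows of these members, so their share is near that of all promoters. A match to 6 letters is a description of the sequence and not a binding site. The other windows were those of Agrn (2 windows), Sdc1, Sdc3, Sdc4 and Gpc3. The window of Hspg2 lies at chr4:137468553-137468852, plus strand, with 70.3% G and C, and that of Nid1 at chr13:13437352-13437651, plus strand, with 64.7%, beside a median of 52.7% over all windows.
Hspg2: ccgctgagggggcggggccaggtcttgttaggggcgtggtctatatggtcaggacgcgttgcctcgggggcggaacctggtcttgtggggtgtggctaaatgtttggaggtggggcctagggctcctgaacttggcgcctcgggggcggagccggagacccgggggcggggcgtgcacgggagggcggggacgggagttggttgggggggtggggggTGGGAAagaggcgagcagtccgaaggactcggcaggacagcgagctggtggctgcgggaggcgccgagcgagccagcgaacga
Nid1: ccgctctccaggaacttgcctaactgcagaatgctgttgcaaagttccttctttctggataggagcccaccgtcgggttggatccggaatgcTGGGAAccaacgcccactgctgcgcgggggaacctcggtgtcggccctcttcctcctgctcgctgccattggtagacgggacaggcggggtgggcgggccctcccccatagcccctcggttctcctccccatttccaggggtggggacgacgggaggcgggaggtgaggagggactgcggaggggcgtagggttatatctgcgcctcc

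Among the syndecans, Sdc4 and Sdc2 made up most of the transcript and Sdc4 varied most between libraries. Sdc4 encodes syndecan-4, a component of focal adhesions (minus strand of chromosome 2, 164424247 to 164443887). It measured 91.1, 77.8 and 66.2 FPKM in the wild-type and 92.1, 120.6 and 71.9 FPKM in the EC-Jag1KO libraries. EC-Jag1KO replicate 2 was the highest, EC-Jag1KO replicate 3 was below wild-type replicates 1 and 2, and the groups overlapped. The means of 78.4 ± 12.5 and 94.9 ± 24.5 FPKM (SD, n = 3 each) gave the largest estimate of the 10 genes, 0.25 as log2 fold change (interval from -0.22 to 0.73, limma adjusted p = 0.825). Leaving out EC-Jag1KO replicate 2 gave 0.066, and leaving out replicate 3 of that genotype gave 0.44 (limma adjusted p = 0.528); without wild-type replicate 3 it was 0.14.

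Sdc2 encodes syndecan-2, typical of mesenchymal cells (plus strand of chromosome 15, 32920723 to 33034730). It measured 41.6, 52.9 and 39.5 FPKM in the wild-type and 41.7, 43.0 and 56.4 FPKM in the EC-Jag1KO libraries. In each group 1 library stood above the other two, wild-type replicate 2 and EC-Jag1KO replicate 3. The log2 fold change was 0.072 (interval from -0.30 to 0.45, adjusted p = 0.940), and it was -0.063 without EC-Jag1KO replicate 3 and 0.20 without wild-type replicate 2, so its direction rested on single libraries.

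Sdc1 encodes syndecan-1, the syndecan of epithelia and plasma cells (plus strand of chromosome 12, 8771323 to 8793715). It measured 13.8, 15.0 and 13.1 FPKM in the wild-type and 17.3, 14.3 and 16.3 FPKM in the EC-Jag1KO libraries. Of the EC-Jag1KO libraries, 2 lay above all wild-type libraries and replicate 2 lay within their range. The means of 14.0 ± 0.987 and 16.0 ± 1.48 FPKM gave a log2 fold change of 0.18 with an interval from -0.067 to 0.43 (adjusted p = 0.747). Of the 8 lymphocyte and plasma cell markers 2 reached a mean of 1 FPKM, and their sum, 70.1 to 80.6 FPKM in the wild-type and 55.8 to 72.1 FPKM in the EC-Jag1KO libraries, was nearly all Xbp1, which other cells also express. Igj, a plasma cell marker, ranged from 0.171 to 1.73 FPKM and from 0.0361 to 2.71 FPKM in the same order. The part of these cells was not tested.

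Sdc3 encodes syndecan-3, best known from neural tissue (plus strand of chromosome 4, 130792537 to 130826319). It measured 9.96, 7.38 and 8.35 FPKM in the wild-type and 8.94, 7.997 and 10.2 FPKM in the EC-Jag1KO libraries, and the groups overlapped almost fully. The log2 fold change was 0.074 (interval from -0.24 to 0.39, adjusted p = 0.932). It was 0.18 without wild-type replicate 1 and -0.017 without wild-type replicate 2. The summed level of 8 Schwann cell and nerve markers was highest in EC-Jag1KO replicate 3, at 82.8 against 47.4 to 59.97 FPKM in the other 5 libraries, and Sdc3 was highest in that library too; the part of these cells was not tested.

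The 4 syndecans summed to 156, 153 and 127 FPKM in the wild-type and to 160.0, 186 and 155 FPKM in the EC-Jag1KO libraries. Sdc4 took 53.7 ± 3.99% of this sum in wild-type and 56.3 ± 9.28% in EC-Jag1KO, and Sdc2 took 30.7 ± 3.99% and 28.5 ± 6.996%. The ratio of Sdc4 to Sdc2 varied between libraries more than between genotypes, from 1.47 to 2.19 in wild-type and from 1.27 to 2.80 in EC-Jag1KO. Sdc1 took 7.71% to 10.8% and Sdc3 4.30% to 6.59% over the 6 libraries.

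**Figure D3:**
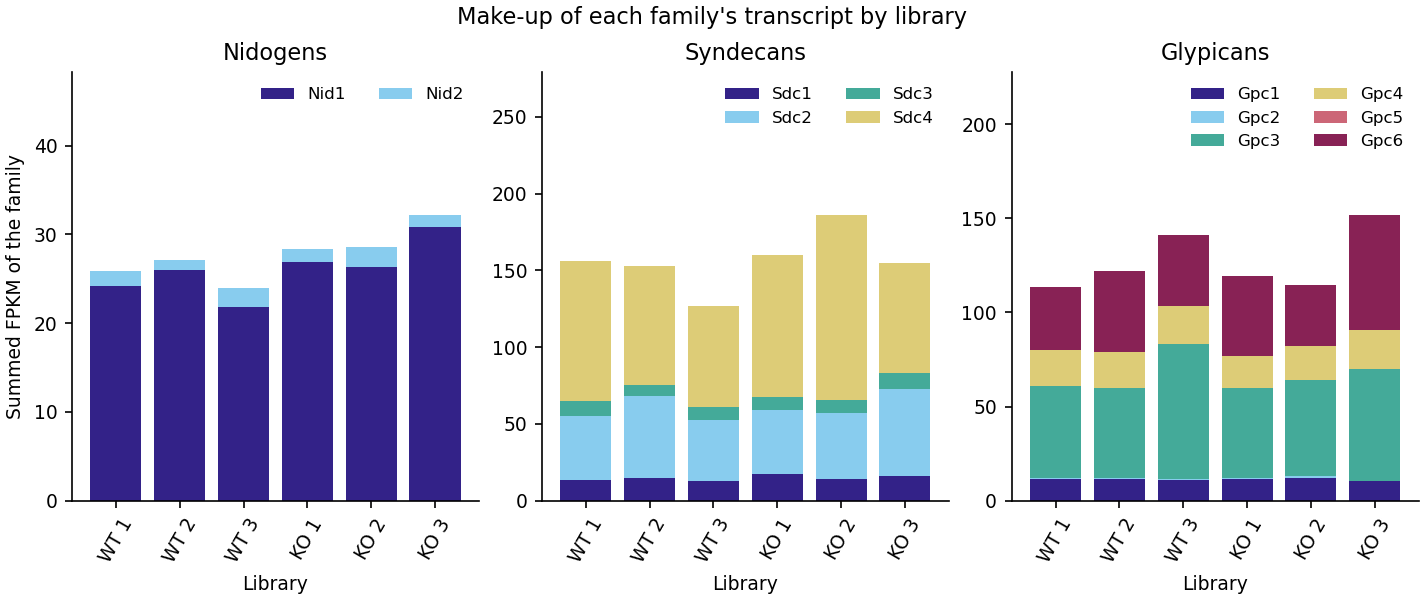
Summed FPKM of the nidogens, syndecans and all 6 glypicans in each wild-type (WT) and EC-Jag1KO (KO) library, stacked by gene. Nid1 makes up over 91% of the nidogens in each library, Sdc4 46.4% to 64.9% of the syndecans, and Gpc3 with Gpc6 most of the glypicans.

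Among the glypicans, Gpc3 had its own highest values in 1 library of each genotype. Gpc3 encodes glypican-3, a regulator of body growth whose loss in humans causes an overgrowth syndrome (ENSMUSG00000055653, minus strand of chromosome X, 52272426 to 52613950). It measured 48.6, 48.1 and 71.6 FPKM in the wild-type and 47.6, 51.1 and 59.1 FPKM in the EC-Jag1KO libraries. Its highest values were those of wild-type replicate 3 and EC-Jag1KO replicate 3, the libraries that expressed Xist, while the other 4 lay between 47.6 and 51.1 FPKM whatever their genotype. Gpc4, its neighbour on chromosome X, was also highest in those libraries, at 19.9 and 20.7 FPKM against 17.02 to 19.3 FPKM. Both libraries lay above the other 4 in 10.3% of 388 tested X-linked genes and in 9.33% of 11770 autosomal ones. By genotype the means of Gpc3 were 56.1 ± 13.4 and 52.6 ± 5.87 FPKM (SD, n = 3 each), which gave a log2 fold change of -0.073 with an interval from -0.48 to 0.33 and an adjusted p of 0.946 in limma. It was 0.11 without wild-type replicate 3 and 0.028 without both libraries that expressed Xist.

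Gpc1 encodes glypican-1, a widely expressed co-receptor for fibroblast growth factors (plus strand of chromosome 1, 92831645 to 92860779). It measured 11.5, 11.4 and 11.05 FPKM in the wild-type and 11.7, 12.3 and 10.3 FPKM in the EC-Jag1KO libraries. This was the steadiest of the 10 genes, with a coefficient of variation of 5.96% over the 6 libraries. The log2 fold change of 0.010 had an interval from -0.22 to 0.24 (adjusted p = 0.991), which in terms of FPKM + 1 spans 0.860-fold to 1.18-fold. It was -0.041 without EC-Jag1KO replicate 2. Of the summed FPKM of all 6 glypicans, Gpc3 took 44.4 ± 5.82% in wild-type and 41.1 ± 2.94% in EC-Jag1KO, Gpc6 30.4 ± 4.25% and 34.8 ± 5.92%, Gpc4 15.6 ± 1.48% and 14.5 ± 1.06%, and Gpc1 9.10 ± 1.17% and 9.10 ± 2.07%. Gpc2 and Gpc5 together stayed under 1 FPKM in every library.

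Set against the mean of the 6 libraries, no library was the highest, or the lowest, for all members. EC-Jag1KO replicate 3 was the highest library for Hspg2, Nid1, Sdc2 and Sdc3 and the lowest for Gpc1. Wild-type replicate 3 was the highest for Gpc3 and the lowest for Nid1, Sdc1, Sdc2 and Sdc4. EC-Jag1KO replicate 2 stood out in Sdc4, 0.50 above the mean on the log2(FPKM + 1) scale, and was also the highest for Nid2 and Gpc1.

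**Figure D4:**
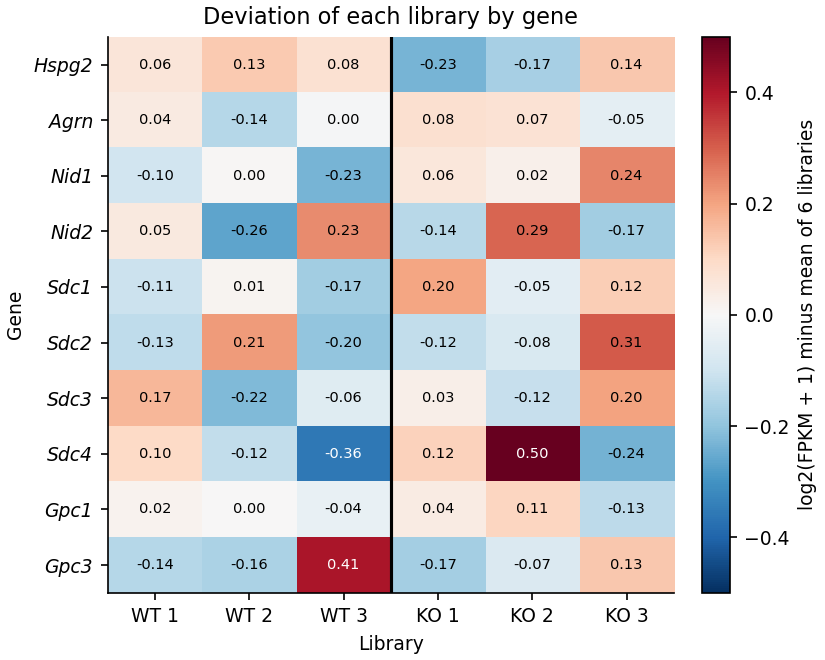
Deviation of log2(FPKM + 1) from the mean of the 6 libraries for each gene (rows) in each wild-type (WT) and EC-Jag1KO (KO) library (columns); the vertical line separates the genotypes. The largest deviations are 0.50 for Sdc4 in EC-Jag1KO replicate 2 and 0.41 for Gpc3 in wild-type replicate 3, each in a single library of its group.

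For each member the tested protein-coding gene with the most similar profile was sought, as the smallest root mean square difference of centred log2(FPKM + 1) profiles over the 6 libraries, among genes with at least 50% of the member's own SD. Pitpnm2 was nearest to Hspg2 (0.036), Nadk to Agrn (0.018), Spcs3 to Nid1 (0.019) and Rsrp1 to Nid2 (0.053). Ddx6 was nearest to Sdc1 (0.026), Specc1 to Sdc2 (0.032), Dock9 to Sdc3 (0.042) and Anxa3 to Sdc4 (0.066). Tsr2 was nearest to Gpc1 (0.014) and Cdc42bpg to Gpc3 (0.041). No member had another member as its nearest gene, and with 6 libraries and 6502 to 11349 candidate genes for each member a close profile is easily found.

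The other core proteins that carry heparan sulfate included the most abundant one measured here. Col18a1, the collagen XVIII gene whose product is a basement membrane proteoglycan and the source of endostatin, stood at 363 ± 73.9 FPKM in the wild-type and 272 ± 32.5 FPKM in the EC-Jag1KO libraries, so the log2 fold change was -0.40 (limma adjusted p = 0.654). Of 8 such genes, 6 were tested, 3 higher and 3 lower, and 0 passed an unadjusted p of 0.05. The median log2 fold change was 0.025, and it ran from -0.067 (without EC-Jag1KO replicate 3) to 0.086 with 1 library left out, so its sign was not stable.

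None of the tested enzymes that build and modify the chains passed the adjusted threshold. Of 13 genes of chain assembly 12 were tested, 5 higher and 7 lower, with a median of -0.046. B3galt6, which adds a galactose of the sugar linker between core protein and chain, was the 1 gene past an unadjusted p of 0.05, at 2.29 ± 0.312 against 1.447 ± 0.368 FPKM (log2 fold change -0.43, limma adjusted p = 0.588); over all genes 3.46% passed in the lower direction. Ext2, a subunit of the chain polymerase, had the highest level of this list, 33.1 ± 0.461 against 31.4 ± 1.49 FPKM. Of 20 genes of sulfation and epimerisation 11 were tested, 6 higher and 5 lower, 0 passed an unadjusted p of 0.05, and the median was 0.037, or -0.0074 without EC-Jag1KO replicate 3. Glce, the epimerase that makes iduronic acid, had the smallest p of this list, at 7.98 ± 0.474 against 9.53 ± 0.933 FPKM (log2 fold change 0.23, adjusted p = 0.663), and Ndst1, the N-deacetylase and N-sulfotransferase, the highest level, at 32.6 ± 2.53 against 31.9 ± 5.26 FPKM.

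Of 15 genes that trim, shed or degrade the proteoglycans 13 were tested, 8 higher and 5 lower, with a median of 0.0069 that ran from -0.051 to 0.066 with 1 library left out. Sulf2, an extracellular sulfatase that removes sulfate groups from finished chains, was the 1 gene past an unadjusted p of 0.05, at 56.4 ± 5.85 FPKM in the wild-type and 72.7 ± 7.07 FPKM in the EC-Jag1KO libraries. This is 1 of 13 tested genes, beside 7.71% of all tested genes past that threshold. Its log2 fold change of 0.36 did not pass over all genes (adjusted p = 0.544 in limma).

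Partners of these proteins in the basement membrane lay lower more often than higher in EC-Jag1KO libraries. Of 24 listed genes 20 were tested, 15 lower and 5 higher, with a median log2 fold change of -0.11; over all tested genes 6088 of 12165 lay lower. An unadjusted p of 0.05 was passed by 4 lower genes and 1 higher gene of the 20, beside 7.71% of all tested genes in either direction and 3.46% in the lower one, and 0 passed the adjusted threshold. This list was drawn up with earlier results of these libraries known, and Fbln1, Fbln2 and Lama5 were among those results. Fbln1, the fibulin-1 gene, stood at 69.9 ± 6.23 against 38.2 ± 5.23 FPKM (adjusted p = 0.240) and Fbln2, whose product binds nidogen and perlecan, at 47.5 ± 6.09 against 74.8 ± 8.42 FPKM (adjusted p = 0.361). Lama5, the laminin alpha 5 chain, stood at 47.3 ± 3.75 against 35.9 ± 2.88 FPKM (adjusted p = 0.443), and Lamb2, the most abundant of the list, at 249 ± 7.08 against 214 ± 6.68 FPKM (adjusted p = 0.654). Col4a1, a type IV collagen chain, and Lrp4, the receptor of agrin, were chosen after their values were seen. Col4a1 stood at 198 ± 11.7 against 167 ± 5.49 FPKM and Lrp4 at 2.79 ± 0.417 against 1.999 ± 0.138 FPKM. The smooth muscle marker sum was lower in the same libraries, with Myocd, Cnn1 and Synpo2 higher by group mean, and its part in these differences was not tested.

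**Figure D5:**
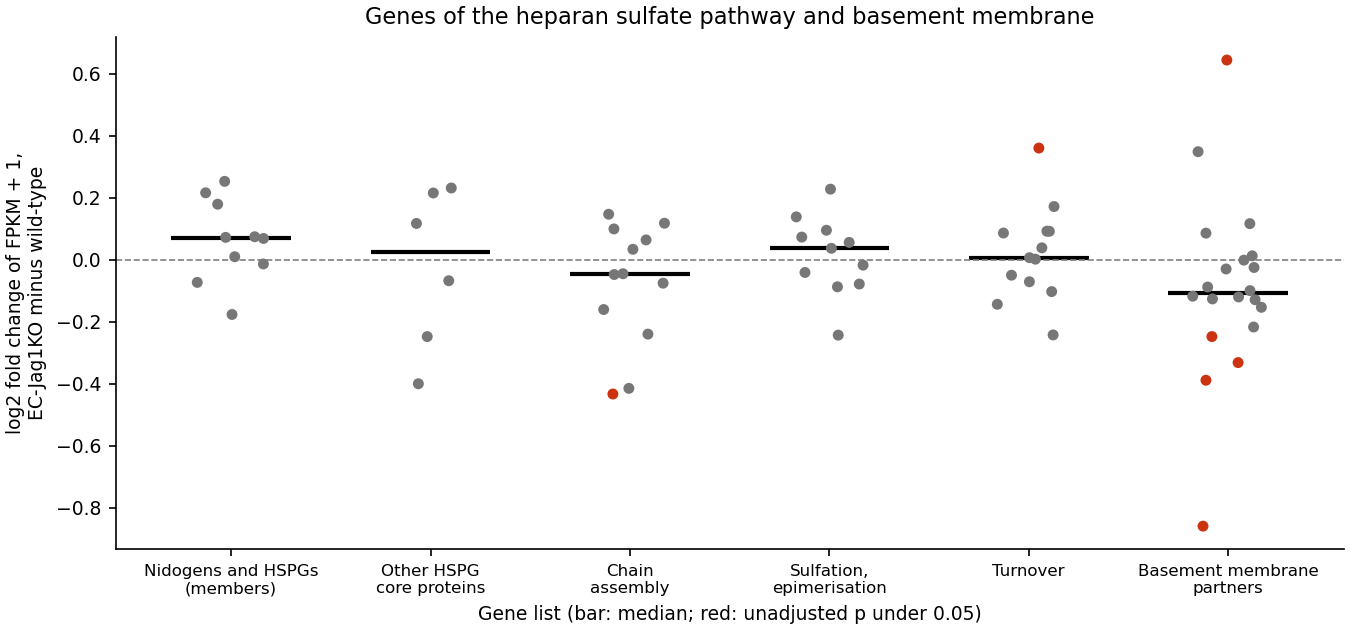
Log2 fold change of FPKM + 1 (EC-Jag1KO minus wild-type) of each tested gene, by list, with the list median as a bar and genes past an unadjusted p of 0.05 in red. The 10 members lie between -0.18 and 0.25, and the basement membrane partners run from -0.86 for Fbln1 to 0.64 for Fbln2.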

How the data were processed

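Aortic RNA was extracted with spin columns, per the labels' protocols. The authors deposited 1 table of FPKM values for 35275 genes, 1 column per sample, with gene coordinates and lengths per the file headers. The submitters' processing notes name STAR, HTSeq and the build mm10; the sources used here give neither the annotation release nor a strand setting, so antisense genes that overlap Sdc3, Gpc1 and Gpc3, all at or near 0 FPKM, may share reads with them. Multiplied by gene length, the FPKM values of each library have 1 common sum, and 100% of 211650 values lay within 0.05 of whole reads, from which depth was taken.

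Genes averaging at least 1 FPKM (12165) were tested as log2(FPKM + 1) by limma 3.58.1 (R 4.3.3), comparing genotypes with no covariate, a variance trend, two-sided tests and Benjamini-Hochberg adjustment over all of them. The test was run on simulated data with planted changes larger than the estimate of any member, so that check does not cover changes of their size. Alternatives covered pseudocount, filter, scaling, variance model, weights, voom on recovered reads, the replicate number as a block and each library left out. The members and lists were chosen with earlier results of these data known. In each list up to 3 genes past an unadjusted p of 0.05, or else the 1 of smallest p, and the gene of highest level are named. The gene of highest level in the turnover list is not reported here. For 2 marker genes the table holds an older symbol. Matplotlib 3.10.9 drew the plots.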

Additional observations from a re-analysis of the deposited data

How the results depend on the processing

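The 10 members kept their direction under both other pseudocounts, no filter, median-of-ratios scaling, no variance trend, the replicate block and voom; the filter at a mean of 5 FPKM left 9, without Nid2, and these kept theirs. Hspg2, Agrn, Nid1, Sdc1 and Sdc4 kept it under every alternative run. Gpc1 turned to -0.0081 under quantile normalization. Sdc2 turned to -0.077 with array weights and to -0.043 in voom with quality weights. Without both libraries that expressed Xist, Nid2 was at 0.18, Sdc2 at -0.14, Sdc3 at -0.018 and Gpc3 at 0.028. With 1 library left out, log2 fold changes ranged from -0.29 to -0.10 for Hspg2, from 0.015 to 0.11 for Agrn, from 0.15 to 0.27 for Nid1, from 0.13 to 0.25 for Sdc1, from 0.066 to 0.44 for Sdc4, from -0.16 to 0.10 for Nid2, from -0.063 to 0.20 for Sdc2, from -0.017 to 0.18 for Sdc3, from -0.041 to 0.079 for Gpc1 and from -0.17 to 0.11 for Gpc3. The cause was not tested.

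Members past the adjusted threshold numbered 2 with array weights (Hspg2 and Sdc1), and 0 with any 1 library left out. Members past an unadjusted p of 0.05 numbered 3 with array weights (34.6% of all tested genes), 2 in voom with quality weights (18.2%), 1 without both libraries that expressed Xist (11.1%) and 0 to 2 with 1 library left out (Sdc1 when EC-Jag1KO replicate 2 was left out, with 11.8% of all tested genes, and Hspg2 and Sdc4 when replicate 3 of that genotype was, with 9.30%). Members whose groups do not overlap numbered 0 under quantile normalization (13.3% of all tested genes) and 5 without both libraries that expressed Xist (43.8%). With 1 library left out they numbered 1 to 5, where 18.9% to 30.5% of all tested genes did not overlap.

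Genes past an unadjusted p of 0.05 numbered 1 among other core proteins under quantile normalization and 1 without both libraries that expressed Xist, and 0 to 1 with 1 library left out. In chain assembly they numbered 0 without both such libraries and 0 to 2 with 1 left out. In sulfation they numbered 2 with no filter and 0 to 1 with 1 library left out, and in turnover 2 with no filter and 1 to 2. Among basement membrane partners they numbered 3 to 4 with 1 library left out, and the median was -0.13 to -0.061, and -0.14 without both libraries that expressed Xist. Of all tested genes, 7.60% passed an unadjusted p of 0.05 under quantile normalization and 11.1% without both libraries that expressed Xist. With no filter the share was 6.29% of 22822 genes, and with 1 library left out it was 4.88% to 11.8%. The deviations of same-numbered libraries had correlations of 0.055, 0.051 and -0.050, and those of unlike-numbered libraries ran from -0.24 to 0.19. With 3 libraries per group these values cannot show whether the numbers pair the samples, and both libraries that expressed Xist carry the number 3. With the replicate block 0 turnover genes and 3 basement membrane partners passed, beside 6.92% of all tested genes. Over all genes 938 passed an unadjusted p of 0.05 in the fit reported, 4215 with array weights, 2220 in voom with quality weights, 1436 with no filter, and, leaving out 1 library, 601 (wild-type replicate 2) and 594 and 1437 (EC-Jag1KO replicates 1 and 2). Past the adjusted threshold there were 0, against 1647 with array weights, 43 in voom with quality weights, 4 without EC-Jag1KO replicate 1 and 2 without both libraries that expressed Xist. With 149 to 267 reads, depth limits the values of Nid2 more than those of the other members.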
